A study of Mus musculus with 6 samples.

Results

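The SLAM family receptors and their adaptors were followed in induced T (iT) cells. The group was defined by gene symbol, with no threshold on a measured value, although earlier results of these data were known when it was chosen. It holds the 7 receptor genes Slamf1, Slamf6, Slamf7, Cd244, Cd48, Ly9 and Cd84, and the adaptor genes Sh2d1a and Sh2d2a. All 9 were found among the 23420 rows of the expression table, and each was at 1 TPM (a read total scaled by transcript length and library size) or more in every library. The samples were 3 libraries of CD4 single-positive (CD4SP) and 3 of CD8 single-positive (CD8SP) iT cells from spleen, each made from 1000 sorted cells. Both populations arose in sublethally irradiated young adult B-NDG mice, a NOD strain with the Prkdc scid mutation and without Il2rg, and thus with no T or B cells of its own. The donor cells were blood progenitors derived from mouse stem cells of C57BL/6 background that carry a doxycycline-inducible Runx1-p2a-Hoxa9 cassette in the Rosa26 locus (iR9 cells). This cassette is carried by both populations. The study describes transplantation in the absence of doxycycline, although some recipients of another experiment were fed it. Which treatment the mice sequenced here had is not stated separately. The sort took CD45.2+ donor cells positive for CD4 or CD8 after exclusion of other lineages, Ter119 and CD11b among the excluded markers. Neither CD3 nor NK1.1 was part of that gate. The study also reports donor-derived NK cells (NK1.1+CD3-) in the spleen of such recipients. The labels do not say whether a library came from 1 mouse or from several, so p-values measure the spread between these libraries.

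SLAM receptors are immunoglobulin-like proteins on blood cells, most of which bind a second copy of themselves on a neighbouring cell. CD244 is the exception, as its ligand is CD48, which is held in the membrane by a lipid anchor and in mice also binds CD2. Tyrosine motifs in the tails of several, but not all, of these receptors recruit SAP. This small SH2 adaptor is encoded by Sh2d1a and brings in the kinase Fyn. Without SAP the same motifs can recruit phosphatases. In T cells this pathway is known for its part in help to B cells, in the development of NKT cells and in the killing of target cells.

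The libraries matched their labels, with Cd4 at 279 to 331 TPM in CD4SP libraries and at most 0.104 TPM in CD8SP libraries, and Cd8a at 1038 TPM or more in CD8SP and at most 2.93 TPM in CD4SP libraries. Cd8b1 was at 2197 TPM or more in CD8SP and at 24.3 to 36.0 TPM in CD4SP libraries. The summed level of 6 T cell genes was 4582 to 4883 TPM in CD4SP and 3712 to 4198 TPM in CD8SP libraries. Of these Cd5 alone was called, higher in CD4SP (log2 difference 1.63, limma adjusted p 0.00035), where 7.92% of all tested genes were. The 5 B cell genes read summed to 14.8 to 20.5 TPM in CD4SP and 20.0 to 23.3 TPM in CD8SP libraries. Most of this was Cd79b, at 10.9 to 17.4 TPM in CD4SP and 18.5 to 21.6 TPM in CD8SP libraries. Cd79a was at 2.23 to 3.56 TPM and 1.52 to 1.73 TPM, and neither of these 2 tested genes was called. Ebf1 was at 0.294 to 0.434 TPM in CD4SP and listed at 0 in CD8SP libraries. The defining genes Ms4a1 and Pax5 were listed at 0 throughout. The 6 myeloid genes summed to 17.1 to 31.3 TPM and 3.64 to 9.09 TPM, with Lyz2, the only one tested, called higher in CD4SP and both S100a8 and S100a9 at 0 in every library. Ribosomal protein genes took 23.7% to 28.3% of TPM in CD4SP and 31.6% to 35.3% in CD8SP libraries. The median log2 difference of the 10476 tested genes was 0.28 toward CD4SP, and 0.15 with those genes removed, so member differences are also read against it. CD8SP replicates 1 and 2 resembled each other most (Pearson r 0.987 across tested genes, against 0.955 to 0.971 for the other pairs within a population).

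The levels of the members were first put in order within each population by their TPM, which are scaled by transcript length. Whether amplification and read coverage were alike between genes was not tested. The order therefore describes listed TPM and not numbers of transcripts. Cd48 was the most abundant in both, with a CD4SP mean of 824 ± 106 TPM and a CD8SP mean of 689 ± 91.2 TPM (SD, n = 3 each), above 98.3% of tested genes by its mean over the 6 libraries. In CD4SP cells it was followed by Sh2d1a, Slamf6, Sh2d2a, Cd84, Slamf1, Slamf7, Ly9 and Cd244. Of these neighbours Slamf6 and Sh2d2a overlapped between libraries, as did Slamf7 with Ly9 and Ly9 with Cd244. In CD8SP cells the order after Cd48 was Sh2d2a, Sh2d1a, Slamf6, Cd84, Slamf7, Slamf1, Cd244 and Ly9. There Sh2d1a overlapped with both of its neighbours, and Cd244 with Ly9. Slamf1 and Slamf7 exchanged places between the populations, with no overlap of libraries in either.

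**Figure D1:**
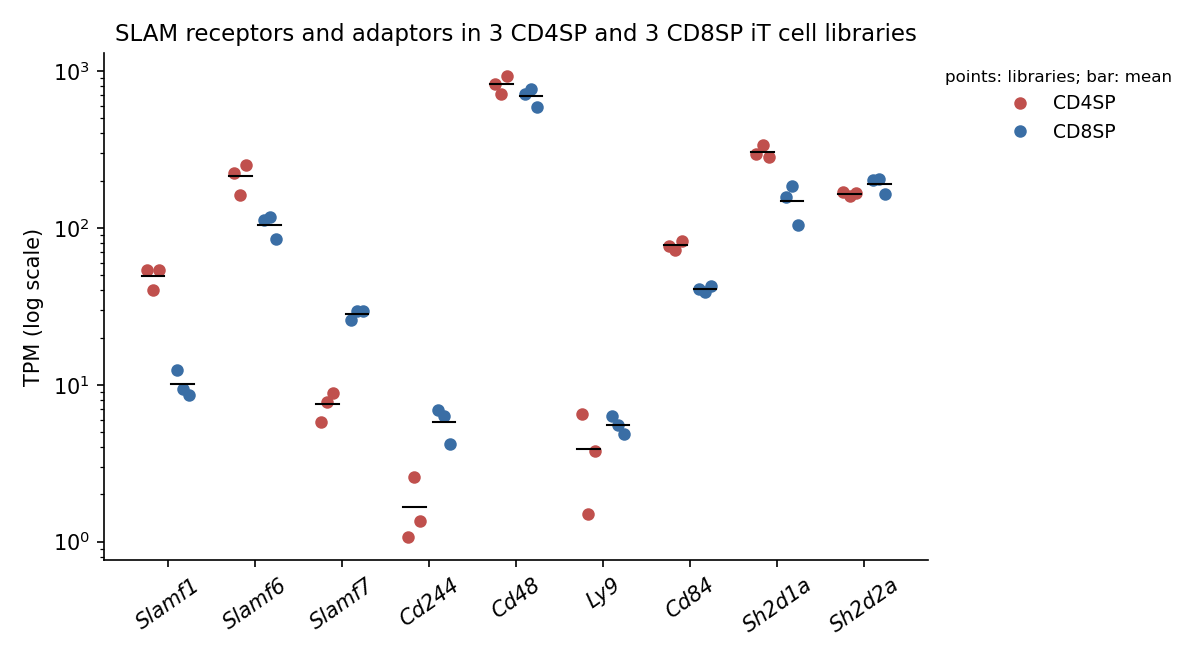
Expression of the 9 SLAM members, in TPM on a logarithmic axis; each point is 1 library and each bar the mean of 3. The CD4SP points of Slamf1, Slamf6, Cd84 and Sh2d1a lie above all CD8SP points, the CD8SP points of Slamf7 and Cd244 lie above all CD4SP points, and the populations overlap for Cd48, Ly9 and Sh2d2a.

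CD4SP and CD8SP iT cells were then compared to ask which SLAM genes separate the T cell lineages. Slamf1, Slamf6 and Sh2d1a were higher in CD4SP cells, and Slamf7 and Cd244 were higher in CD8SP cells. A gene was called when limma's adjusted p was under 0.05 over all tested genes and its difference on the log2(TPM + 1) scale was over 2-fold. Of the 9 members 3 were called higher in CD4SP, where 7.92% of all tested genes were, and 2 were called higher in CD8SP, where 1.80% of all tested genes were. Populations did not overlap for 4 members with CD4SP above, as for 36.6% of all tested genes, and for 2 members with CD8SP above, as for 6.61% of all tested genes. The median log2 difference of the 9 members was 0.26, against 0.28 over all tested genes. With 1 library left out, 1 to 3 members were called higher in CD4SP (1 without CD8SP replicate 3) and 1 or 2 in CD8SP (1 without CD4SP replicate 3, CD8SP replicate 1 or CD8SP replicate 2). Of the 10476 tested genes, 683 to 1003 were called higher in CD4SP and 134 to 218 in CD8SP in these fits. After rescaling of the libraries by 3 other methods only Slamf1 was called higher in CD4SP. Of all tested genes, 444 to 683 were called higher in CD4SP after rescaling, against 830 without it. The member differences with their intervals are plotted next.

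**Figure D2:**
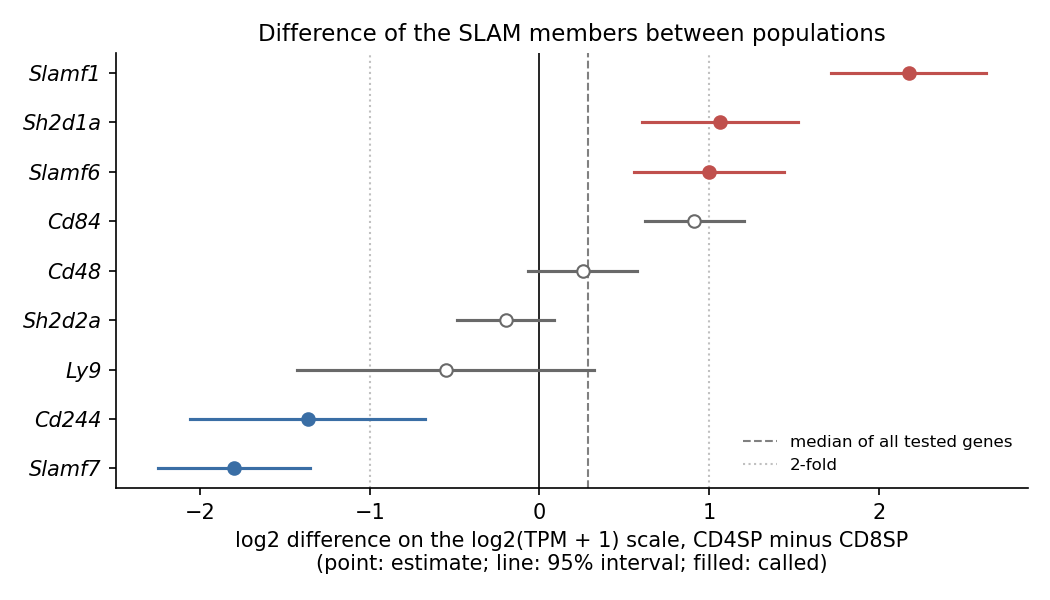
Difference between populations on the log2(TPM + 1) scale, CD4SP minus CD8SP, with its 95% interval from limma; filled points were called, the dashed line is the median of all tested genes (0.28) and dotted lines mark 2-fold. Slamf1 (2.18) and Slamf7 (-1.80) lie farthest out on either side, and the intervals of Cd48, Ly9 and Sh2d2a include 0.

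Slamf1, which encodes the self-binding receptor SLAM (CD150), had the largest difference toward CD4SP cells. CD4SP replicates 1 to 3 held 53.8, 40.0 and 54.1 TPM, and CD8SP replicates 1 to 3 held 12.4, 9.39 and 8.60 TPM, the order of replicates used for all values below. Every CD4SP library was thus above every CD8SP library, CD4SP replicate 2 being the lowest of its population. The ratio of the means was 4.86 and the log2 difference 2.18 (SE 0.20, 95% interval 1.72 to 2.63, limma adjusted p 0.000268), or 1.89 above the median of all tested genes. The gene stayed called under all 16 alternatives, with log2 differences of 1.85 to 2.32. Its longest transcript holds a stretch of 200 to 209 bases that is at least 95% identical to transcripts of 9 other genes, so reads from that stretch could be shared.

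Slamf6 encodes Ly108, a self-binding receptor of T and NK cells. CD4SP libraries held 225, 162 and 251 TPM of it and CD8SP libraries 112, 118 and 85.1 TPM. The populations did not overlap, although CD4SP replicate 2 stood well below the other two. The log2 difference was 1.0006 (SE 0.19, limma adjusted p 0.009), just past the 2-fold limit, and 0.72 above the median of all tested genes. It fell under that limit without CD4SP replicate 1 (0.95), CD4SP replicate 3 (0.87) or CD8SP replicate 3 (0.86) and in the rescaled fits (0.70 to 0.85), while the adjusted p was at most 0.0389 under all alternatives. Cd84, another self-binding receptor, was at 77.2, 72.4 and 83.0 TPM in CD4SP and at 40.6, 38.8 and 42.7 TPM in CD8SP libraries. These were the tightest values of any receptor, with a coefficient of variation of 6.87% and 4.76%, and the populations lay far apart relative to it. With a log2 difference of 0.91 (SE 0.13, limma adjusted p 0.00226) Cd84 passed the test but not the 2-fold limit. Slamf6 and Cd84 were thus the members just inside and just outside that limit.

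Slamf7 (CRACC) and Cd244 (2B4), receptors best known from NK cells and cytotoxic T cells, were higher in CD8SP cells. Slamf7 was at 5.83, 7.77 and 8.88 TPM in CD4SP and at 25.8, 29.5 and 29.6 TPM in CD8SP libraries. All CD8SP libraries were above all CD4SP libraries and close to one another. The mean was 3.78 times higher in CD8SP cells, with a log2 difference of -1.80 (SE 0.20, 95% interval -2.25 to -1.35, limma adjusted p 0.000667). Slamf7 stayed called under all 16 alternatives (log2 difference -2.14 to -1.65). It shares 423 exonic bases (9.24% of its exonic length) with Gm37787 on the opposite strand, which was not analysed here. Cd244 was at 1.07, 2.60 and 1.35 TPM in CD4SP and at 6.86, 6.30 and 4.19 TPM in CD8SP libraries. It was the least abundant member in CD4SP cells, yet its highest CD4SP library lay below its lowest CD8SP library. Its log2 difference was -1.37 (SE 0.30, 95% interval -2.06 to -0.67, limma adjusted p 0.016). Without CD4SP replicate 3, CD8SP replicate 1 or CD8SP replicate 2 the log2 difference was -1.29, -1.25 and -1.30, close to the full value, while limma's adjusted p was 0.0535, 0.0762 and 0.0691, so the call was lost in these smaller sets.

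Because both receptors are also NK cell genes, 6 NK cell markers were read beside them. Their summed level was 11.9 to 22.5 TPM in CD4SP and 58.0 to 63.8 TPM in CD8SP libraries. Ncr1, which encodes the NK cell receptor NKp46, and Klra8, which encodes a receptor of a subset of NK cells, were listed at 0 in all 6 libraries. Of the 4 markers tested, Klrb1c (NK1.1) and Klre1 were called higher in CD8SP cells, where 1.80% of all tested genes were. Klrb1c was at 7.49, 9.14 and 5.22 TPM there and at 1.37, 0.682 and 1.82 TPM in CD4SP libraries. Klre1, a lectin-like receptor of NK cells, made up most of the sum in CD8SP libraries, at 37.2, 43.0 and 46.2 TPM against 9.28, 3.77 and 5.46 TPM. Tyrobp, a signalling chain of NK and myeloid cells, was at 7.49 to 9.54 TPM in CD4SP and 4.92 to 10.7 TPM in CD8SP libraries, and Fcer1g was at 4.78 TPM or less in every library. The part of these markers in the result for Slamf7 and Cd244 was not tested. In bulk samples a larger share of cells with a transcript and more transcript per cell cannot be told apart.

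Cd48 and Ly9 overlapped between the populations. Cd48, which encodes the ligand of CD244 and CD2, was at 826, 716 and 929 TPM in CD4SP and at 711, 768 and 590 TPM in CD8SP libraries. CD8SP replicate 2 was above CD4SP replicate 2, so the ranges crossed. The log2 difference of 0.26 (SE 0.14, 95% interval -0.064 to 0.58, limma adjusted p 0.219) was close to the median of all tested genes and changed sign after median-of-ratios rescaling (-0.049). Ly9 encodes the self-binding receptor CD229. CD4SP libraries held 6.50, 1.49 and 3.77 TPM of it and CD8SP libraries 6.33, 5.51 and 4.86 TPM. The CD4SP libraries spanned the whole CD8SP range and more, with a coefficient of variation of 64.0% against 13.2%. The log2 difference was -0.55 (SE 0.38, 95% interval -1.43 to 0.32, limma adjusted p 0.326), and it ranged from -0.13 without CD4SP replicate 2 to -0.93 without CD4SP replicate 1, not called in either.

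The adaptors differed from each other. Sh2d1a, encoding SAP, was at 297, 337 and 282 TPM in CD4SP and at 157, 185 and 105 TPM in CD8SP libraries. The populations did not overlap, and CD8SP libraries varied more, with CD8SP replicate 3 the lowest of all. The ratio of the means was 2.05 and the log2 difference 1.06 (SE 0.20, 95% interval 0.61 to 1.52, limma adjusted p 0.00815). It fell under 2-fold without CD8SP replicate 3 (0.83) or CD4SP replicate 2 (0.99), with library weights (0.85) and in the rescaled fits (0.76 to 0.91), with an adjusted p of at most 0.0381 under all alternatives. Sh2d1a shares 1465 exonic bases (26.6% of its exonic length) with the end of Tenm1 on the opposite strand, and Tenm1 was listed at 0 in all 6 libraries. Sh2d2a encodes TSAd, an SH2 adaptor that binds the kinase Lck and is not a SAP homologue. It was at 169, 159 and 166 TPM in CD4SP and at 202, 205 and 164 TPM in CD8SP libraries. CD8SP replicate 3 lay within the CD4SP range and the other CD8SP libraries above it. The log2 difference was -0.20 (SE 0.12, 95% interval -0.48 to 0.086, limma adjusted p 0.28). After median-of-ratios rescaling it was -0.50 (limma adjusted p 0.0143) and after quantile normalization -0.40 (limma adjusted p 0.0324), neither past 2-fold.

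Ratios of 2 members within a library do not change when all its values are multiplied by the same factor, and were therefore computed as a description. Quantile normalization is not such a scaling and can change them. The Slamf1 to Slamf7 ratio was 9.22, 5.15 and 6.09 in CD4SP and 0.481, 0.318 and 0.290 in CD8SP libraries. In TPM, all CD4SP libraries thus held more Slamf1 than Slamf7 and all CD8SP libraries the reverse. The Sh2d1a to Sh2d2a ratio was 1.76, 2.12 and 1.69 in CD4SP and 0.776, 0.905 and 0.641 in CD8SP libraries. The adaptor ratio lay above 1 in every CD4SP library and below 1 in every CD8SP library. Relative to Cd48, Slamf6 was at 0.226 to 0.272 in CD4SP and 0.144 to 0.158 in CD8SP libraries. The Slamf7 to Cd48 ratio was 0.00706 to 0.0109 in CD4SP and 0.0363 to 0.0503 in CD8SP libraries. Cd48 made up 69.1% to 71.5% of the summed TPM of the 7 receptors in CD4SP and 77.1% to 78.8% in CD8SP libraries, and that sum was 1002 to 1331 TPM and 765 to 975 TPM.

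**Figure D3:**
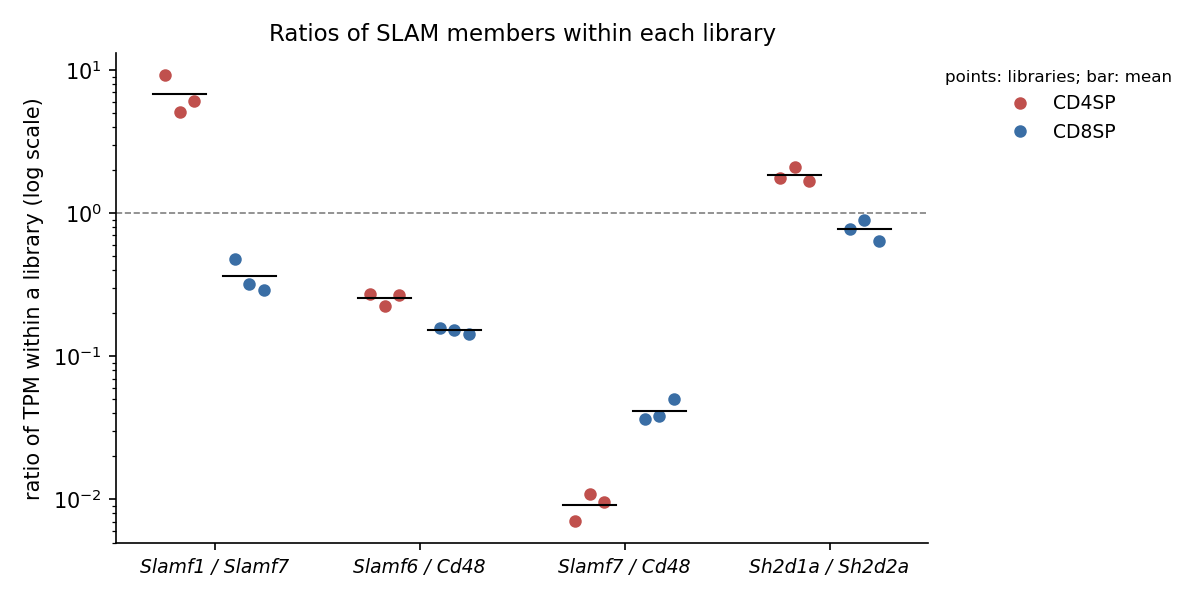
Ratio of the TPM of 2 members within each library, on a logarithmic axis; points are libraries, bars are means of 3 and the dashed line marks equal levels. The Slamf1 to Slamf7 ratio is 5.15 or more in CD4SP and 0.481 or less in CD8SP libraries, and the Sh2d1a to Sh2d2a ratio lies on opposite sides of 1.

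The position of the genes was not used to choose them. The 7 receptor genes lie in 1 cluster of 394 kb on chromosome 1, from 171559193 to 171953170 (GRCm38, the assembly named mm10), 5 on the plus and 2 on the minus strand. All are protein coding. The order along the chromosome is Cd244 (171559193 to 171609746), Ly9 (171588624 to 171607410), Slamf7 (171632403 to 171653035), Cd48 (171682009 to 171705258), Slamf1 (171767127 to 171801184), Cd84 (171839697 to 171890718) and Slamf6 (171917515 to 171953170). The members at the Cd244 end, Cd244, Ly9 and Slamf7, had log2 differences of -1.37, -0.55 and -1.80. Cd48 in the middle was at 0.26, and Slamf1, Cd84 and Slamf6 at the other end were at 2.18, 0.91 and 1.0006. With 7 neighbouring genes this order is a description and was not tested. Ly9 lies within the span of Cd244 on the opposite strand without shared exonic bases. Sh2d1a lies on the X chromosome (42502453 to 42529330) and Sh2d2a on chromosome 3 (87846755 to 87855722).

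**Figure D4:**
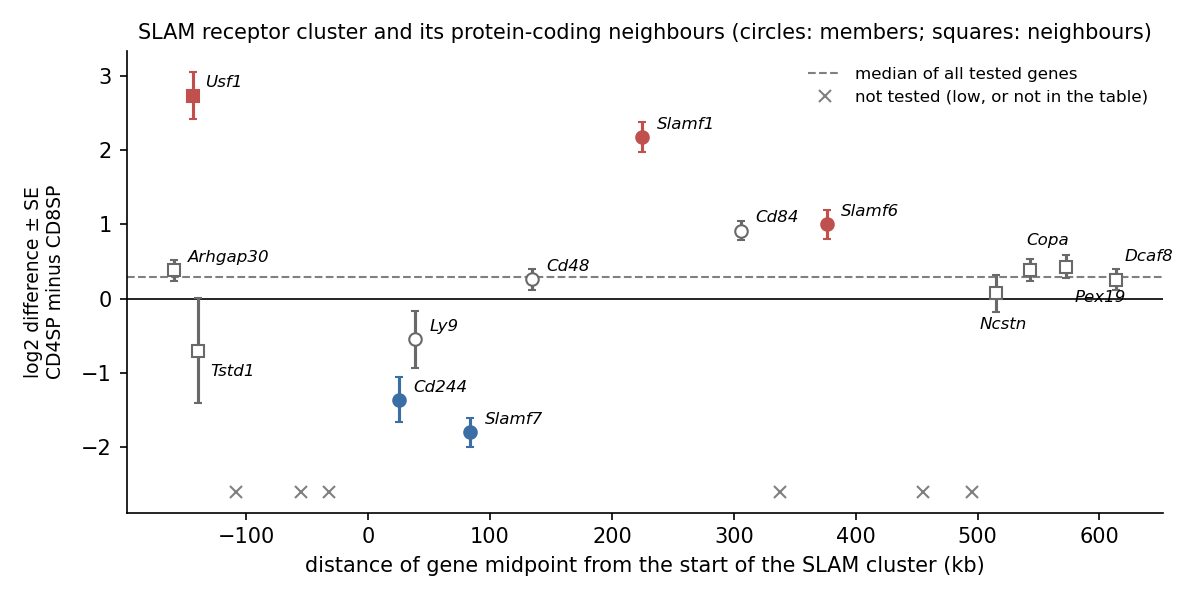
Log2 difference between populations (CD4SP minus CD8SP, ± SE) against the distance of each gene's midpoint from the start of the SLAM cluster, in kb; circles are members, squares are protein-coding neighbours, filled symbols were called and crosses were not tested. Members left of Cd48 lie below 0, those right of it lie above 0.9, and Usf1 is the only neighbour called.

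Neighbours of the cluster were read for comparison, namely the 6 protein-coding genes beyond each end and the 1 between members. Of these 13 genes 12 were in the table and 7 were tested. Usf1, a widely expressed transcription factor, was called higher in CD4SP cells, at 6.94, 8.68 and 4.53 TPM against 0, 0.454 and 0 TPM (log2 difference 2.73, SE 0.31, limma adjusted p 0.000873). It passed the filter on low values through its CD4SP libraries alone, a listed 0 can be a failed estimate, and its span overlaps that of Tstd1 on the same strand. The other 6 tested were not called. Arhgap30, Copa, Pex19 and Dcaf8 had log2 differences of 0.26 to 0.43, near the median of all tested genes, Ncstn was at 0.071 and Tstd1 at -0.70. F11r and Itln1 before the cluster and Nhlh1 beyond it were listed at 0 in all 6 libraries.

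Upstream sequences are shown for the 4 called receptor genes, whose differences ran in opposite directions within 1 cluster. The RefSeq promoter table (build GRCm38.p6) held an entry for 6 of the 9 members. Each sequence below runs 5′ to 3′ along the gene's strand, covers 242 to 250 bases before the RefSeq start, with any annotated exonic bases trimmed off. For Slamf7 that start lies within the gene span given above, and for Slamf6 the window ends short of the gene span, so both differ from the annotated gene ends. Capitals mark a match to the letters GTGTGA or, on the other strand, TCACAC, the core of the site bound by T-box factors such as T-bet and Eomes.
Slamf1, chr1:171766882-171767126, plus strand: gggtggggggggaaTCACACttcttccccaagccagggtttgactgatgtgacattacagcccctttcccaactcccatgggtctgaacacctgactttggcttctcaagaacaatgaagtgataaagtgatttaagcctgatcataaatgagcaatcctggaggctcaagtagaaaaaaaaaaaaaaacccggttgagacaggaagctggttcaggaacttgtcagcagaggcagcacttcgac
Slamf6, chr1:171917212-171917461, plus strand: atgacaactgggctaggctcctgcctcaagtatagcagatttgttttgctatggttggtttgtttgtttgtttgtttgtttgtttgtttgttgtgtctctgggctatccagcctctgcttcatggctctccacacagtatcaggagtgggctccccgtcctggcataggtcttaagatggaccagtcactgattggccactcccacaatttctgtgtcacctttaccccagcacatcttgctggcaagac
Slamf7, chr1:171649008-171649249, minus strand: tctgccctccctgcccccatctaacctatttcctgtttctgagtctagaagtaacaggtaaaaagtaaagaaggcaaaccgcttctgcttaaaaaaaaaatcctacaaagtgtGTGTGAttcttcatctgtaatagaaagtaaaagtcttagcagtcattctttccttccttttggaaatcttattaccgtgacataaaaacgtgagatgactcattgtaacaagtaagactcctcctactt
Cd244, chr1:171558943-171559192, plus strand: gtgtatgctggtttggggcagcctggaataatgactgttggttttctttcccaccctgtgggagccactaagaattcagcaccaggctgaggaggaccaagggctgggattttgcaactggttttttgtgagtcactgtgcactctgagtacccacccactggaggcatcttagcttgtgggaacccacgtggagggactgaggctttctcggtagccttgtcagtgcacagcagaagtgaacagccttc
Slamf1 and Slamf7 each held 1 such match, beginning 236 and 137 bases before the start, and Slamf6 and Cd244 held none of these letters. They are found on either strand in 12.3% of all 32851 promoter windows of 250 bases. The letters TGTGGT bound by Runx factors (14.0% of windows), AGATAA bound by GATA factors (9.99%) and GGAAGT bound by ETS factors (19.7%) were searched in the same way, and none was in these 4 windows. In Cd84, 1 TGTGGT match began 45 bases before the start. A match describes the letters and not a bound site, and its part in the differences was not tested.

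The signalling partners of the family were compared next, from a list of 18 genes for kinases, phosphatases and adaptors that act with SAP, TSAd or the receptor tails. All 18 were tested. Ptpn11 was called higher in CD4SP cells and no gene was called higher in CD8SP cells, against 7.92% and 1.80% of all tested genes. The median log2 difference of the list was 0.35, against the 0.28 of all tested genes. Without the fold limit, Ptpn11, Bcl10, Dok1, Dok2, Inpp5d and Lat were higher in CD4SP and Ptpn6 was higher in CD8SP cells, where 17.6% and 3.23% of all tested genes were. With library weights and without CD4SP replicate 2, Bcl10 was also called higher in CD4SP and Plcg2 higher in CD8SP. Of the 10476 tested genes these fits called 935 and 1003 higher in CD4SP and 237 and 199 higher in CD8SP. By limma at an unadjusted p under 0.05, 8 partners were higher in CD4SP and 1 in CD8SP cells, against 31.4% and 5.69% of all tested genes.

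The phosphatases that SLAM motifs can recruit differed in opposite directions. Ptpn11, encoding SHP-2, was at 38.3, 33.9 and 47.1 TPM in CD4SP and at 18.9, 21.4 and 16.8 TPM in CD8SP libraries. The populations did not overlap, and the log2 difference was 1.02 (SE 0.18, limma adjusted p 0.00595), which fell under 2-fold without CD4SP replicate 3 (0.89) or CD8SP replicate 3 (0.94) and in the rescaled fits (0.71 to 0.88). Ptpn6, encoding SHP-1, was at 286, 226 and 285 TPM in CD4SP and at 455, 464 and 354 TPM in CD8SP libraries. Here every CD8SP library was above every CD4SP library, with a log2 difference of -0.67 (SE 0.15, limma adjusted p 0.0162), under the 2-fold limit. Inpp5d, encoding the lipid phosphatase SHIP-1, was at 29.1 to 36.6 TPM in CD4SP and 21.9 to 24.2 TPM in CD8SP libraries (log2 difference 0.53, limma adjusted p 0.0452, not past 2-fold).

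**Figure D5:**
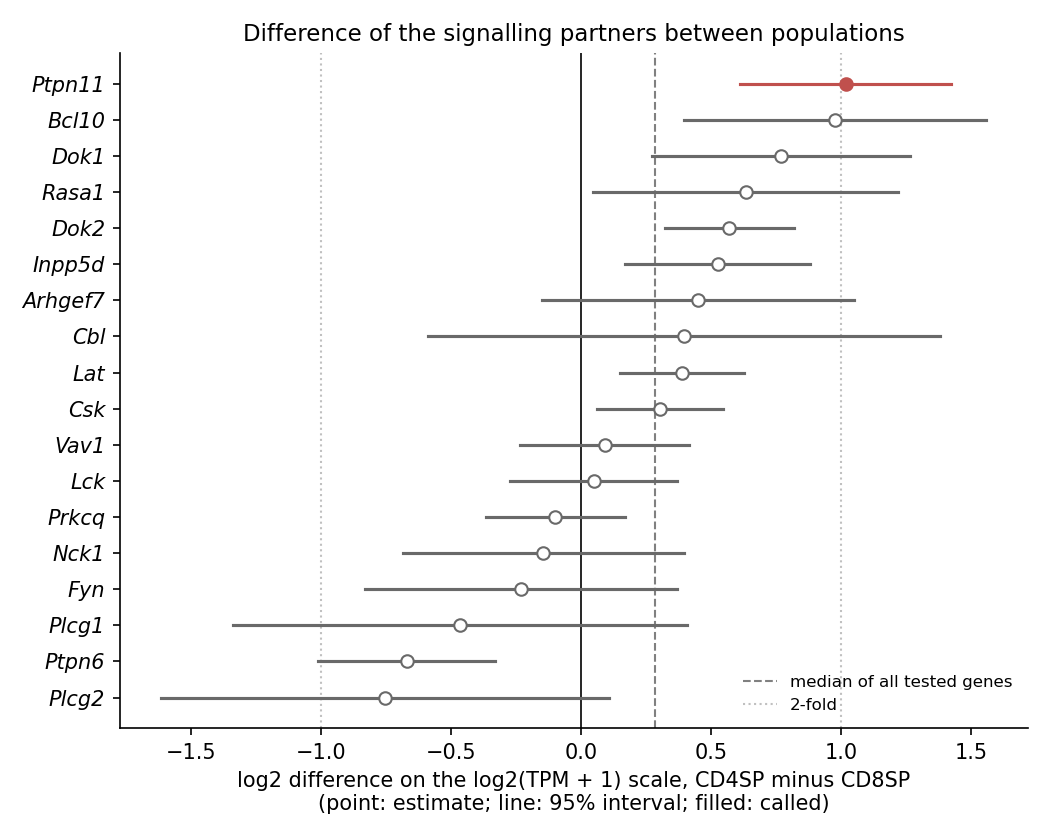
Difference of the 18 signalling partners on the log2(TPM + 1) scale, CD4SP minus CD8SP, with its 95% interval from limma; the filled point was called, the dashed line is the median of all tested genes (0.28) and dotted lines mark 2-fold. Ptpn11 (1.02) lies highest, Ptpn6 (-0.67) lies below 0 with an interval that excludes it, and Lck and Prkcq lie near 0.

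The kinases Fyn, Lck and Prkcq, which act with SAP or TSAd, did not pass the test. Fyn, the kinase bound by SAP, was at 240, 116 and 224 TPM in CD4SP and at 236, 232 and 184 TPM in CD8SP libraries. The populations overlapped, with CD4SP replicate 2 far below the others (log2 difference -0.23, 95% interval -0.83 to 0.37, limma adjusted p 0.553). Lck was at 1527 to 1881 TPM in CD4SP and 1352 to 1788 TPM in CD8SP libraries (log2 difference 0.049, 95% interval -0.27 to 0.37, limma adjusted p 0.824). Prkcq, encoding the protein kinase C theta that SAP can bind, was at 78.2 to 84.2 TPM and 81.8 to 89.9 TPM (log2 difference -0.099, 95% interval -0.37 to 0.17, limma adjusted p 0.567). The intervals of all 3 stay within 2-fold. Bcl10, a link from protein kinase C to NF-kB, was at 83.7, 39.0 and 59.2 TPM in CD4SP and at 28.4, 31.8 and 26.6 TPM in CD8SP libraries (log2 difference 0.98, limma adjusted p 0.0295, not past 2-fold). The adaptors Dok1 (log2 difference 0.77, limma adjusted p 0.0389) and Dok2 (0.57, limma adjusted p 0.00862), which act with SHIP-1, did not overlap between populations.

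Among 5 further family genes, the receptors Slamf8 and Slamf9 and the SAP homologues Sh2d1b1 and Sh2d1b2 (EAT-2 and its paralogue) were listed at 0 in all 6 libraries. Sh2d1a was therefore the only SAP-type adaptor listed above 0. Cd2, which encodes the other CD48-binding receptor, was at 755, 682 and 789 TPM in CD4SP and at 505, 499 and 481 TPM in CD8SP libraries. Every CD4SP library was above every CD8SP library (log2 difference 0.58, SE 0.10, limma adjusted p 0.00609), under the 2-fold limit. In listed TPM, Cd2 thus exceeded Cd244 by far in both populations.

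Markers of T cells that depend on SAP were read beside the members. Of 7 markers of follicular helper T cells, the helpers of B cells, 4 were tested, and of these Icos and Bcl6 were called higher in CD4SP cells, where 7.92% of all tested genes were. Icos was at 471, 334 and 432 TPM in CD4SP and at 82.8, 82.4 and 65.3 TPM in CD8SP libraries. Bcl6, the factor that defines these cells, was low, at 2.04 to 3.16 TPM in CD4SP and 0.326 to 0.676 TPM in CD8SP libraries, and it passed the filter on low values through CD4SP libraries alone. Cxcr5 (log2 difference 0.64, limma adjusted p 0.0465) and Pdcd1 (0.47, limma adjusted p 0.039) were higher in CD4SP cells without overlap, short of 2-fold. Of the untested markers, Ascl2 was listed at 0 in all 6 libraries, Tox2 was at 0.904 to 1.30 TPM in CD4SP and at most 0.257 TPM in CD8SP libraries, and Il21 was at 0.918 to 3.47 TPM in CD4SP and listed at 0 in CD8SP libraries. The summed level of the list was 458 to 623 TPM in CD4SP and 163 to 178 TPM in CD8SP libraries. Of 6 markers of innate-like NKT cells, Zbtb16, their defining factor PLZF, was listed at 0 in all 6 libraries. Of the 5 tested, Egr2 was called higher in CD4SP and Klrb1c in CD8SP cells, where 7.92% and 1.80% of all tested genes were, and neither Tbx21, Cxcr6 nor Cd1d1 was called. The summed level of 524 to 720 TPM in CD4SP and 465 to 505 TPM in CD8SP libraries was mostly that of Cxcr6, a chemokine receptor also found on other T cells, at 466 to 656 TPM and 413 to 451 TPM. The part of these markers in the results for Slamf1, Slamf6 and Sh2d1a was not tested.

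Genes with the most similar pattern were sought for the member farthest out on each side, as the 3 tested genes with the smallest root-mean-square difference from it over the 6 libraries after centring log2(TPM + 1) values. For Slamf1 these were Ikzf4, a zinc finger factor of the Ikaros family (0.086 on the log2 scale), Dkkl1 (0.12) and Tnfrsf18, which encodes the costimulatory receptor GITR (0.14). Tnfrsf18 was at 835, 712 and 769 TPM in CD4SP and at 177, 173 and 152 TPM in CD8SP libraries. For Slamf7 they were Elovl7 (0.099), which was at most 0.31 TPM in CD4SP and 2.24 to 3.15 TPM in CD8SP libraries and passed the filter through the latter alone, Amica1, which encodes the adhesion molecule JAML (0.19), and Ifitm10 (0.19). Amica1 was at 21.9, 25.9 and 21.1 TPM in CD4SP and at 84.1, 85.4 and 83.0 TPM in CD8SP libraries. The 6 libraries fall into the sorted populations, so this likeness mostly reflects a difference of similar size between them.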

How the data were processed

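Per the labels and the study's methods, the authors amplified cDNA of sorted cells with a whole-transcriptome kit and sequenced it, aligned reads to mm10 with HISAT2 and estimated expression with StringTie. They deposited TPM, 1 column per library (column sums 997896 to 998100). TPM keep no depth, so the depth is unknown and no counting interval or floor was computed. Strand use and duplicate removal are not given in the sources used here. A larger share of 1 transcript class lowers all other values of a library.

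The 10476 genes that reached 1 TPM in 3 or more libraries were compared on log2(TPM + 1), a scale that understates changes of low genes, with limma 3.58.1 in R 4.3.3 (population as the only term, mean-variance trend, two-sided, Benjamini-Hochberg over all tested genes). Calls needed an adjusted p under 0.05 and over 2-fold, the study's criterion. Positions are from GENCODE M21, and near-identical transcripts were searched with blastn 2.17.0 (at least 95% over 200 bases). Members and lists were chosen with earlier results of these data known. Named genes were all members, the listed relatives, markers that bear on them, fixed or called partners, locus neighbours and most similar genes. Neighbours that were not called, partners that passed on the adjusted p alone or in 1 alternative, and within-library ratios were added after their values were seen. Alternatives were a pseudocount of 0.1, no filter, 5 TPM, 3 rescalings (median-of-ratios, quantile, and without 82 ribosomal protein genes), no trend, library weights, replicate block, no fold limit, averaged CD8SP replicates 1 and 2, and each library left out. The myeloid marker Adgre1 and a protein motif search were not analysed here. One B cell marker and 1 signalling partner of the lists are not reported here and were left out of the sums and counts.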

Additional observations from a re-analysis of the deposited data

How the results depend on the processing

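Slamf1 and Slamf7 kept their direction and call in all 16 alternatives, and Cd84, Ly9, Sh2d2a and Cd48 passed 2-fold in none. The members called higher in CD4SP fell from 3 to 1, Slamf1, after median-of-ratios rescaling, quantile normalization and removal of ribosomal protein genes (1 each). Over all tested genes, 489 of 10476, 444 of 10476 and 683 of 10699 were called higher in CD4SP there, against 830 of 10476 before rescaling. In these fits the median of all genes moved from 0.28 to 0.001, -0.015 and 0.15, Slamf6 to 0.70, 0.80 and 0.85, and Sh2d1a to 0.76, 0.86 and 0.91, and Ptpn11 was not called (0 partners in each). The share of all called genes that were higher in CD4SP went from 81.5% to 62.1%, 57.1% and 72.9%. Library weights put Sh2d1a at 0.85 and called 2 partners higher in CD4SP and 1 in CD8SP, where 935 and 237 of 10476 tested genes were. Calling on the adjusted p alone gave 6 and 1 partners, against 17.6% and 3.23% of all tested genes. The members called higher in CD8SP fell from 2 to 1 with the 5 TPM filter, which left Cd244 untested, and with CD8SP replicates 1 and 2 averaged (Cd244 -1.275 in place of -1.37, limma adjusted p 0.0695). Over all tested genes, 138 of 8329 and 139 of 10476 were called higher in CD8SP there, against 189 of 10476 without these changes. Cd48 reversed to -0.049 after median-of-ratios rescaling.

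With 1 library left out, members called ranged from 1 to 3 (CD4SP) and 1 to 2 (CD8SP), partners from 0 to 2 and 0 to 1, Slamf6 from 0.86 to 1.185, Sh2d1a from 0.83 to 1.24 and Cd244 from -1.60 to -1.20. Calls over all 10476 tested genes ranged from 683 to 1003 (CD4SP) and 134 to 218 (CD8SP). The cause of these changes was not tested. With the replicate number as a block no member or listed partner changed its call (3, 2, 1 and 0 called, as without it). Of the 10476 tested genes 808 were then called higher in CD4SP and 189 in CD8SP. The deviations of same-numbered libraries correlated by -0.017 to 0.089 across genes. Whether they share a mouse is not stated, so they were not treated as pairs. No depth is known, so low values such as those of Cd244 and Ly9 carry an unknown counting error.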
